A study of Mus musculus with 2 samples.

Results

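The adipocyte genes described here are 9 genes that mark fat cells or carry out their work: Lep, Adipoq, Retn and Cfd, which encode secreted proteins, Lpl, Cd36 and Fabp4, which act in fatty acid uptake, the transcription factor gene Pparg, and the lipase gene Lipe. They were chosen by their symbols with the knockout to wild type differences on these same arrays already known, so their values are a description and carry no test. Of the 9 genes, 8 had at least 1 probe set that the platform annotation ties to their symbol alone, 11 probe sets in all. Cfd had none and has no value here. Of the 8, 7 were measured, which means above a signal of 246.7 units, taken as the floor, on 1 array or both, and Cd36 was under it on both. Over the whole series 8251 genes had such a probe set and 5976 were measured.

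The samples are skin of newborn mice, either lacking keratin 5 (K5-/-, a model of the blistering disease epidermolysis bullosa simplex) or wild type, and the labels name no treatment. RNA of 6 animals per genotype was pooled, and each pool was hybridised to 1 array, so there are 2 arrays and no replicates, and neither the spread between animals nor a p-value can be given. The labels state no strain or sex. The source name calls the tissue epidermis, but the dermal collagen gene Col1a1 (48702 and 39261 signal units in knockout and wild type), the muscle actin gene Acta1 (41501 and 39732) and the fat cell gene Adipoq were all far above the floor, and it is called skin here. Krt5 itself was under the floor on both arrays (81.2 and 46.6) and cannot check the genotype labels.

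Fat cells store triglyceride in lipid droplets and release it as fatty acids between meals. In the skin they form a layer under the dermis that expands around birth and with the growth of hair follicles. Pparg, working with factors of the C/EBP family, switches on the fat cell programme in precursor cells, and Lep and Adipoq are hormones that mature fat cells release. Leptin reports energy stores to the brain and acts through a cytokine-type receptor, with JAK2 and STAT3 as relays and SOCS3 as the feedback inhibitor.

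The 250 bases before the start sites of Lep and Adipoq, both fat cell hormone genes, are set side by side. They were picked with their very different ratios, given below, already known, and whether the sequences bear on those ratios was not tested. Both are on the plus strand of GRCm38.p6, from RefSeq: Lep at chr6:29059971-29060220 and Adipoq at chr16:23146286-23146535. Capitals mark the palindrome that C/EBP factors recognise.
Lep: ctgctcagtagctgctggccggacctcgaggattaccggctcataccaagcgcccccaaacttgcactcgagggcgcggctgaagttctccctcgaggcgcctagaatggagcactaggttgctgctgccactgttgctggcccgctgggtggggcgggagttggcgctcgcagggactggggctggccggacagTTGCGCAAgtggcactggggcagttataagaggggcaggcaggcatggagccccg
Adipoq: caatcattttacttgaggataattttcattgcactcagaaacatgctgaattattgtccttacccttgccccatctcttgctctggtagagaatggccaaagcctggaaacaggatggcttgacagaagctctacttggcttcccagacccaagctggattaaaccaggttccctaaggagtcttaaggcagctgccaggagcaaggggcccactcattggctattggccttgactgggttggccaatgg
The palindrome TTGCGCAA occurred in the Lep window, from -55 to -48 relative to the start, and in no other window of the members. It was found in 0.164% of 32851 promoter windows of this length. RefSeq windows were at hand for 7 of the 9 genes, 10 windows in all, with none for Fabp4 and Lpl. The looser form TTGCNNAA, which includes the palindrome, was in windows of Lep and Pparg and in 9.56% of all windows. The direct repeat that PPAR factors recognise, which is AGGTCA, any 1 base and AGGTCA again, was found in 0.0335% of all windows. With AGGNCA in place of both copies it was in 0.338%. Both forms were in none of the members' windows. TATAAA was in 1 Pparg window and in 12.4% of all, TCACNCCAC in none and in 1.05% of all, and the E-box form CANNTG in windows of all 7 genes and in 66.2% of all, with 2 matches that overlap the palindrome in Lep. Both strands were searched. GC content was 65.6% in the Lep window and 48.8% in the Adipoq window.

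Among the secreted factors, Lep stood far from the others. Its brighter probe set read 2501 signal units in the knockout pool and 869.8 in the wild type pool, a gap of 1631 units and a ratio of 2.88-fold (log2 ratio 1.52). Both values lay well above the floor, at 10.1 and 3.53 times its level. Adipoq, the gene of the insulin-sensitising hormone adiponectin, read 6406 in the knockout pool and 5918 in the wild type pool, a ratio of 1.08-fold. Retn, the gene of resistin, read 558.6 in the knockout pool and 703.2 in the wild type pool, 1.26-fold lower in the knockout. The Lep signals of the pools were thus far apart, while those of Adipoq and Retn lay close together. In RNA of whole skin, a change in the number of cells of a type and a change in RNA per cell cannot be told apart.

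**Figure D1:**
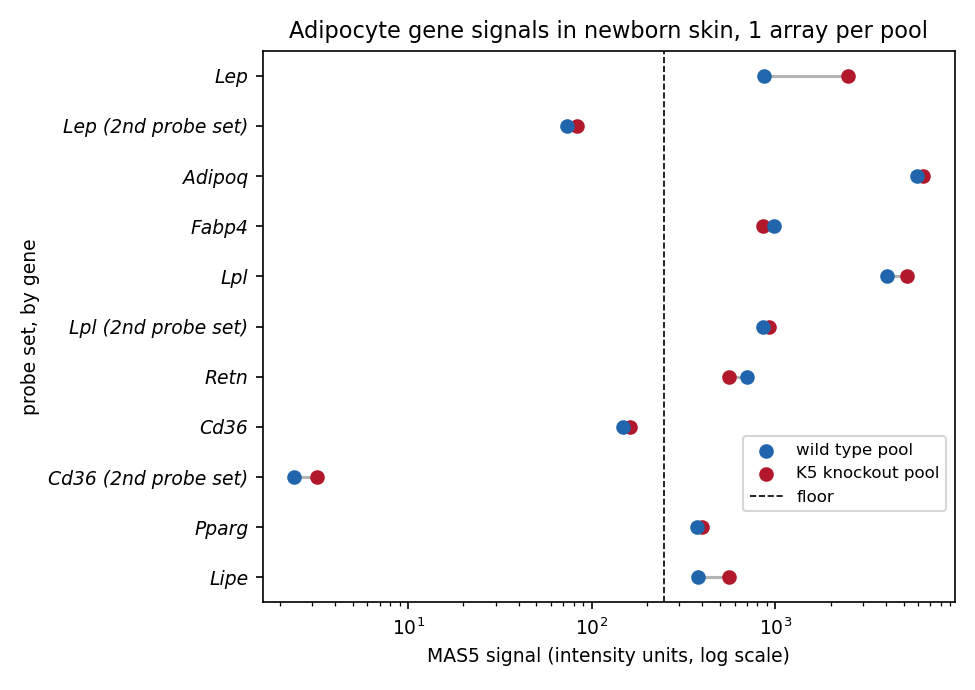
MAS5 signal of each of the 11 probe sets of the adipocyte genes (log axis) in the wild type pool and the K5 knockout pool, 1 array each, with the floor of 246.7 units as a dashed line. The brighter Lep probe set shows the wide gap, 2501 against 869.8, while its second probe set and both Cd36 probe sets lie left of the floor.

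The Lep difference rests on 1 of 2 probe sets. The second, numbered next to the first and carrying the suffix g, read 83.1 for the knockout and 73.2 for the wild type, under the floor on both arrays, so it gives no ratio. The annotation lists a sequence accession for neither of them, and both are tied to Lep by symbol alone. Over all genes, Lep included, 86 plain probe sets with such a companion for the same gene exceeded the floor on both arrays. The companion was under it on both arrays in 13 of them (15.1%). Of the 27 pairs whose plain probe set was at least as bright as that of Lep, Lep included, this held in 3. Of 38 genes, again with Lep, whose brightest probe set differed at least 2-fold and which had another probe set, the next one was under the floor on both arrays in 20. It differed at least 2-fold in the same direction in 5 of the 38, and by under 2-fold in that direction in 9. In 4 of the 38 the next probe set went the other way or showed no difference. Both partners of a companion pair exceeded the floor in each pool for 70 pairs, and 44 of these had ratios of the same sign.

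The genes of fatty acid uptake showed small differences. Lpl encodes lipoprotein lipase, which frees fatty acids from circulating triglyceride at the vessel wall and is made by fat, muscle and macrophages. It had 2 probe sets above the floor, 1 reading 5249 in the knockout pool and 4085 in the wild type pool (log2 ratio 0.36), the other 919.1 and 855.4 (0.10). Fabp4, the gene of the fatty acid carrier of the fat cell cytoplasm, read 858.7 in the knockout pool and 987.4 in the wild type pool (log2 ratio -0.20). Cd36, the gene of a fatty acid translocase that macrophages and vessel cells also carry, read 161.7 and 147.5 on its brighter probe set and 3.20 and 2.40 on the other. The brighter Lpl probe set was thus slightly higher in the knockout and Fabp4 slightly lower. The other Lpl probe set read nearly alike in both pools, and the Cd36 probe sets were too dim for a ratio.

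Pparg, the master regulator of fat cell formation, read 397.6 in the knockout pool and 376.0 in the wild type pool (log2 ratio 0.08). Lipe, the gene of hormone-sensitive lipase, which releases stored fat, read 556.8 in the knockout pool and 379.8 in the wild type pool (log2 ratio 0.55). Pparg therefore read nearly alike in both pools, and Lipe was 1.47-fold higher in the knockout. Both are dim, with wild type signals 1.52 and 1.54 times the floor.

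Ordered by log2 ratio, the measured genes ran from Lep (1.52) through Lipe (0.55), Lpl (0.36), Adipoq (0.11), Pparg (0.08) and Fabp4 (-0.20) to Retn (-0.33). The spread available as a yardstick is that between probe sets of the same gene, with an SD of 0.30 on the log2 scale over 838 genes. It holds no variation between animals, pools or hybridisations. Lep lay 0.97 above Lipe, its neighbour in this order. Every other pair of neighbours differed by 0.28 or less, under that SD, so these neighbours are not told apart. The signs of Adipoq and Pparg are not resolved either: Adipoq was at -0.0035 with the arrays scaled to a common median, and Pparg at about -0.04 with that scaling, with quantile normalization and with a lowess correction.

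Of the 7 measured genes 5 were higher and 2 lower in the knockout, with a median log2 ratio of 0.11, against 0.035 over all measured genes, of which 53.9% were higher. With median scaling Adipoq and Pparg were below 0 too, so this split depends on the scaling. Lep was the 1 member past 2-fold upward, and 0 were past it downward. Over all measured genes, 1.54% were past 2-fold upward and 0.703% downward. The choice of members used this contrast, so nothing is read from these counts. Without Lep, the 6 other measured genes had a median of 0.10 and ran from -0.33 to 0.55, inside the central 95% of all measured genes (-0.74 to 0.85). The log2 ratio of Lep exceeded that of Adipoq by 1.41 and was reached or passed by 19 measured genes, Lep included (0.318%).

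**Figure D2:**
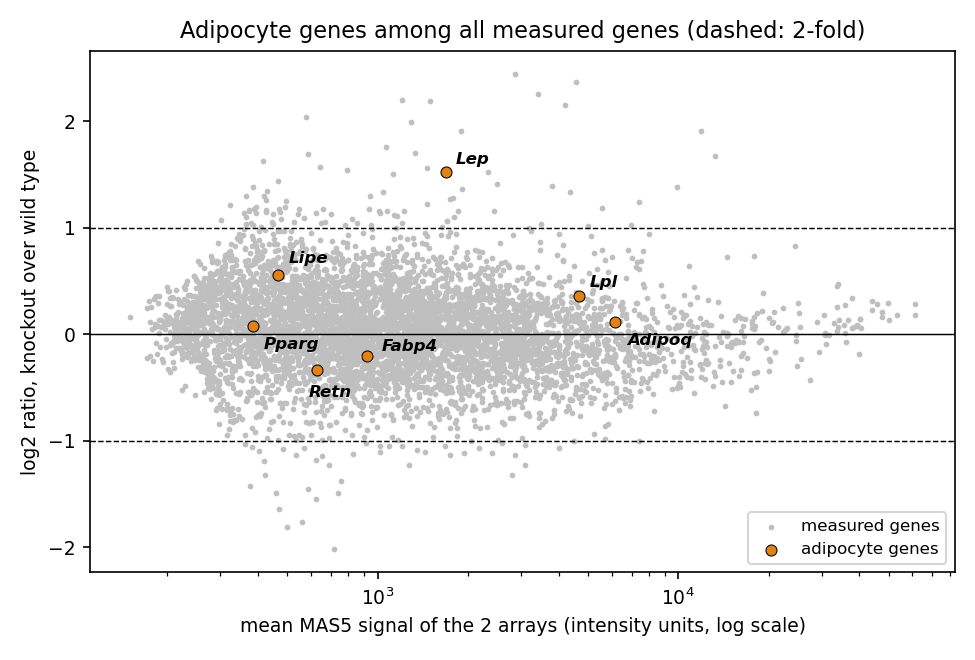
Log2 ratio of knockout over wild type against the mean MAS5 signal of the 2 arrays (log axis) for the 5976 measured genes in grey and the 7 measured adipocyte genes in orange, with 2-fold as dashed lines. Lep lies at 1.52, and the other 6 lie between -0.33 and 0.55 within the cloud of all genes.

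Other genes of fat cells and lipid droplets were close to even between the pools. Of 30 listed, 21 had a probe set and 19 were measured, of which 8 were higher and 11 lower, with 0 at least 2-fold different in either direction. Over all measured genes 53.9% were higher, with 1.54% past 2-fold upward and 0.703% downward, so a count of 0 among 19 says little. Their median log2 ratio was -0.02, which ranged from -0.13 to 0.04 over the processing settings. The highest were Apoe (0.45), which encodes a lipoprotein component, Acadm (0.36), an enzyme gene of fatty acid oxidation, and the lipid droplet coat gene Plin2 (0.34). The lowest were Thrsp (-0.43), a lipogenesis regulator, Lpin1 (-0.41), which acts in triglyceride synthesis, and the monoglyceride lipase gene Mgll (-0.35). Of the fat cell markers besides Adipoq, Cidec, a lipid droplet fusion gene, was under the floor on both arrays (233.2 and 154.0), and Plin1 had no probe set. Angptl4, singled out after its values were seen, encodes an inhibitor of lipoprotein lipase and had 4 probe sets that disagreed. The one with the highest mean gave -0.09 (671.2 and 716.4) and another gave 1.19 (935.6 and 411.4).

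Among transcription factors and precursor genes of the fat lineage, 13 of 19 measured were higher in the knockout and 6 lower, for a median of 0.26 (0.14 to 0.36 over the settings). Over all measured genes 53.9% were higher and 1.54% at least 2-fold higher, and nothing is read from the counts in this list. At least 2-fold higher were Med1, a Mediator subunit that binds PPAR-gamma, above the floor in the knockout alone (607.2 against 125.5, at least 2.46-fold), and Pdgfra, a receptor gene of fibroblasts and fat precursors (6700.0 against 3305, 2.03-fold). The log2 ratio of Med1 is then a bound set by the floor. Pdgfra had another probe set above the floor in the knockout alone, with a bound of 0.34. Gata2, which holds back fat cell formation, was at 0.93. The lowest were Ncoa1 (-0.24), a nuclear receptor coactivator gene, Cd34 (-0.10) and Cebpa (-0.06), the C/EBP gene of mature fat cells. The other Cd34 probe set gave 0.23 (1543 and 1316), so its sign is not settled. The other C/EBP genes of the list were singled out after their values were seen, because of the palindrome shown above: Cebpb was at 0.68 (8967 and 5598) and Cebpd at 0.64 (5491 and 3524), while Cebpa read 11947 and 12489. Whether any of these factors bears on the Lep signal was not tested.

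In the leptin and adiponectin signalling list, 9 of 15 measured were higher in the knockout and 6 lower, for a median of 0.18. The shares over all measured genes were 53.9% higher and 1.54% at least 2-fold higher. Socs3 was the 1 gene at least 2-fold higher, at 2071 against 518.7, and its 2 probe sets gave log2 ratios of 2.00 and 1.80. The adaptor gene Grb2 followed at 0.73 and the leptin receptor gene Lepr at 0.62 (1267 and 824.8), with its other probe set under the floor on both arrays (93.1 and 18.3). The relay genes Jak2 and Stat3 were at -0.06 and -0.03, with 0.23 from the other Stat3 probe set (2503 and 2141), and the adiponectin receptor genes Adipor1 and Adipor2 at -0.03 and 0.18. The lowest were Irs2 (-0.54), an insulin receptor substrate gene, and the AMP kinase subunit genes Prkag1 (-0.41) and Prkab1 (-0.15).

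Genes of lipoprotein handling and fatty acid uptake beyond the members were split, with 8 of 14 measured higher (against 53.9% of all measured genes), 6 lower and a median of 0.14. At least 2-fold different were 0 of the 14, where all measured genes gave 1.54% upward and 0.703% downward. The highest were the muscle-type fatty acid carrier gene Fabp3 (0.78), the transporter gene Slc27a4 (0.56) and the mitochondrial gatekeeper gene Cpt1a (0.51). The lowest were the phospholipid transfer protein gene Pltp (-0.64), Acsl4 (-0.28), which activates fatty acids, and Apoc1 (-0.24). Of 9 brown fat genes with a probe set, 4 were measured. Ucp1, the uncoupling protein that defines brown fat, was under the floor on both arrays with both probe sets (at most 75.2). Cox8b was at 0.66, Pdk4 at -0.01, Dio2 at -0.16 and Cidea, a gene also of lipid droplets in sebaceous glands, at -0.23.

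**Figure D3:**
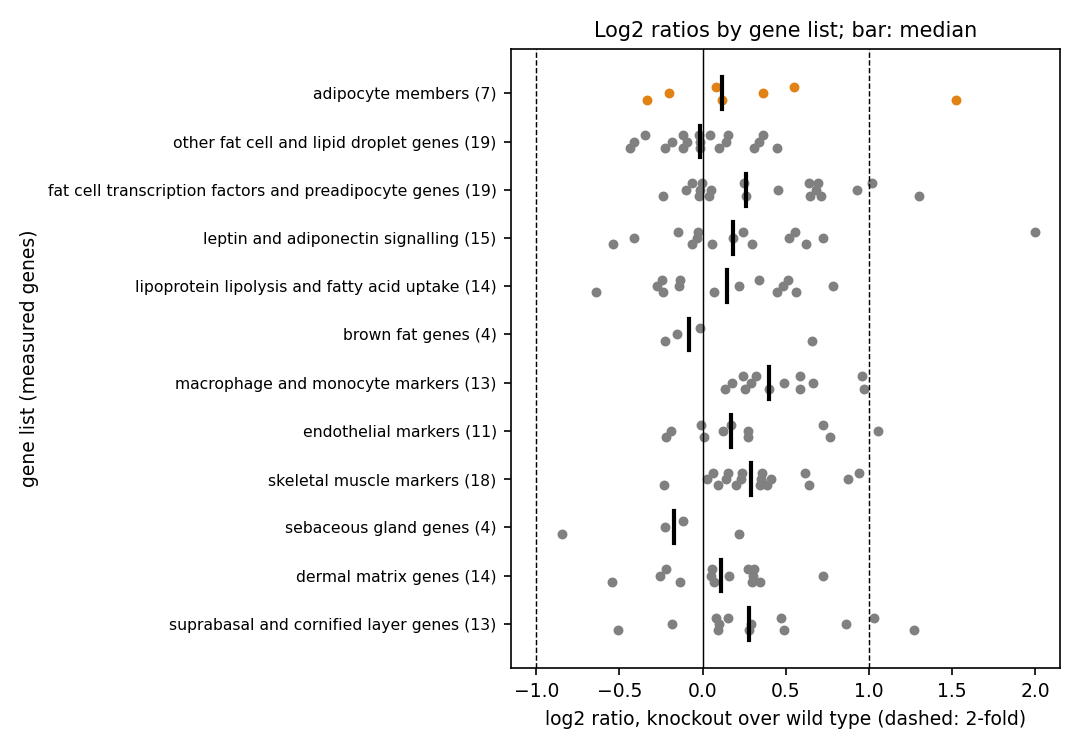
Log2 ratio of knockout over wild type for every measured gene of 12 gene lists, 1 point per gene, with the median of each list as a black bar and the number of measured genes in brackets. Lep is the orange point at 1.52, Socs3 the point at 2.00, and the other fat cell and lipid droplet genes centre on -0.02.

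Most markers of other cells that make some of these transcripts read higher in the knockout. Over all measured genes 53.9% were higher in the knockout. All 13 measured macrophage and monocyte markers, of 16 with a probe set, were higher in the knockout, with a median of 0.40. Their signal summed over the 16 was 22776 against 16748. These counts use the probe set with the highest mean: C1qb, a complement gene, was at 0.96 there, but its other probe set above the floor on both arrays was 2.01-fold lower in the knockout (346.5 and 694.9). Their defining markers Adgre1, Csf1r and Cd68 were at 0.97, 0.58 and 0.29. Mrc1, a mannose receptor gene, was at 0.67, and the lowest were C1qc (0.24), Tyrobp (0.18) and Cd53 (0.13). Skeletal muscle markers were higher in 17 of 18 measured (20 with a probe set), with a median of 0.29 and summed signals of 132795 and 111361. Their defining markers Acta1, Ckm and Mylpf were at 0.06, 0.24 and 0.23. The highest were the myosin genes Myh8 (0.94) and Myh1 (0.88) and the calcium pump gene Atp2a1 (0.64), and the lowest besides Acta1 were Tnni1 (-0.23), a troponin gene, and Des (0.03). Endothelial markers had a median of 0.17 (8 of 11 measured higher, 12 with a probe set, sums of 13231 and 12224), with Pecam1 at 0.17, Cdh5 at -0.19, Tek at 0.73, Kdr at 0.76, Vwf at 1.05 and Ramp2 at -0.01. Tie1 had the lowest ratio, -0.22, but its other probe set gave 0.68. Over the processing settings the median ran from 0.28 to 0.49 for macrophages and from 0.18 to 0.29 for muscle. For endothelium it ran from 0.0018, with the 60th percentile as floor, to 0.17. The settings use the same arrays, so their ranges hold no variation between pools, and a difference is settled for none of these lists. The lists were chosen with earlier results known, and nothing is read from the counts of higher genes. The defining markers of these 3 cell types were above the floor on both arrays with the probe set of highest mean. Macrophages, muscle and endothelium can contribute to Lpl, Cd36, Fabp4 and Pparg, and the part of these cells in the members' values was not tested.

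Sebaceous gland genes had 4 measured of 5 with a probe set, with 1 higher, a median of -0.17 and sums of 3804 and 5330. Scd1, a fatty acid desaturase gene of sebaceous glands and fat, read 1879 in the knockout pool and 3379 in the wild type pool (log2 ratio -0.85), and its companion probe set gave -0.70. The defining sebaceous marker Mc5r read 358.7 and 308.4 (0.22), Prdm1 was at -0.12, and Scd3 had no probe set. Dermal matrix genes had a median of 0.11 (10 of 14 measured higher, 15 with a probe set), with sums of 276183 and 247249.6, and were at -0.0053 in the setting with the lowest value. Besides Col1a1 (0.31), their defining markers Col3a1 and Dcn were at 0.27 and 0.05. The highest were the elastin gene Eln (0.72), Col1a2 (0.34) and Col1a1, and the lowest Thy1 (-0.54), Sparc (-0.25) and Lum (-0.22). Suprabasal epidermal genes had a median of 0.28 (11 of 13 higher, against 53.9% of all measured genes), with sums of 223805 and 191159. The cornified envelope genes Ivl (1.27) and Sprr1a (1.03) were past 2-fold upward, as were 1.54% of all measured genes, and Rptn was at 0.86. The lowest were Krt2 (-0.51), Krt10 and Casp14 (0.08). Their defining markers Krt1, Krt10 and Lor were at 0.28, -0.18 and 0.29.

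Some transcripts of the sex chromosomes differed between the pools as well. Eif2s3y, on the Y chromosome, read 1182 in the knockout pool and 406.8 in the wild type pool, a ratio of 2.90-fold. Its relative on the X chromosome, Eif2s3x, read 5615 and 8127. Xist, which is transcribed from the inactive X chromosome of females, read 64.3 in the knockout pool and 293.6 in the wild type pool. The knockout value is under the floor, so the Xist log2 ratio of -0.25 is a bound. Uty (217.8 and 66.1) and Kdm5d (25.6 and 12.5), also on the Y chromosome, were under the floor on both arrays. The share of male animals in the pools is not stated in the labels, and its part in the Lep difference was not tested.

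Over 2 arrays the ratio is the only likeness between genes. The 5 genes above the floor on both arrays whose log2 ratio lay nearest that of Lep were Ccn1 (1.52), which encodes a matricellular protein, Eif2s3y (1.54), Tmem129 (1.51), the secreted glutathione peroxidase gene Gpx3 (1.56) and Adm (1.58), the gene of the vasodilator adrenomedullin. Ccn1 read 3455 and 1202 signal units and Gpx3 2181 and 740.1.

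**Figure D4:**
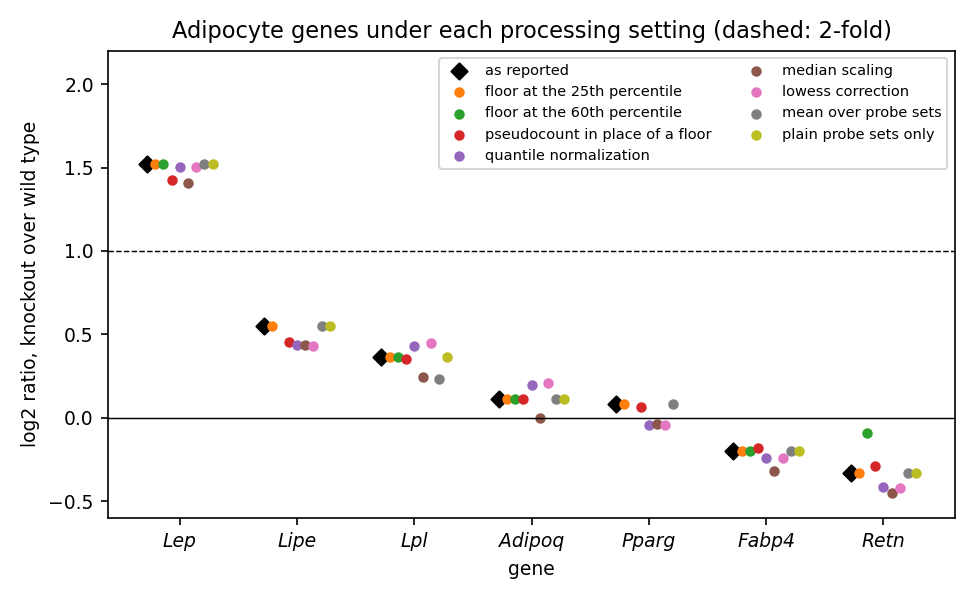
Log2 ratio of knockout over wild type for the 7 measured adipocyte genes as reported (black diamonds) and under 8 other processing settings (coloured points), with 2-fold as a dashed line. Lep lies between 1.41 and 1.52, with 4 of the 8 settings unable to alter it, and the points of Adipoq and Pparg fall on both sides of 0.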

How the data were processed

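Skin RNA pools of 6 newborn K5 knockout and 6 wild type mice were each read on 1 array. The deposited table holds 1 intensity for each probe set, made with MAS5 per the submitters' processing notes, with version, scaling target and detection calls not given in the sources used here. Of 12488 probe sets 66 are controls. For the 12422 others the platform's annotation names 1 gene in 10833 cases, several in 396 and none in 1193. From the deposited intensities, both arrays were scaled to a common 2% trimmed mean (factors within rounding of 1), raised to a floor at the 40th percentile and put on the log2 scale. The probe set with the highest mean stood for a gene. Ratios of genes under the floor on 1 array are bounds. With 1 array per group no test was possible, and the number of arrays limits the precision. The members, the lists and the rule for named genes (all members, every listed gene at least 2-fold different, the 3 highest and 3 lowest of each list, cell type markers, and the 5 genes nearest Lep) were chosen with earlier results of these data known. The calculation was tested on simulated data. Python 3.11.15, pandas 2.3.3 and statsmodels 0.14.6 were used. The 8 alternatives changed the floor (25th or 60th percentile, or a pseudocount of 100), the scaling (quantile, median, lowess), or the probe sets used.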

Additional observations from a re-analysis of the deposited data

How the results depend on the processing

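For Lep, 4 of the 8 alternatives (both other floors and both probe set choices) could not alter the value, because its signals exceed every floor and its other probe set drops out. Under the 4 that could, its ratio was 2.68-fold with the pseudocount, 2.83-fold with quantile normalization, 2.65-fold with median scaling and 2.84-fold with lowess. The other measured members were under 2-fold in each setting that measured them. Each alternative value of the 7 measured members lay within the probe set SD of 0.30 from the reported one. With the 60th percentile as floor, Retn had a bound of -0.09, and Lipe and Pparg were under it on both arrays. Pparg has no plain probe set. Cd36 had a log2 ratio of 0.13 with the 25th percentile as floor and one of 0.08 with the pseudocount. Median scaling lowered the median of all measured genes from 0.035 to -0.0808, and that of the members to -0.0035. Genes at least 2-fold different numbered 92 higher and 42 lower as reported. They were 205 and 94 with the 25th percentile as floor, 44 and 19 with the 60th, 68 and 71 with median scaling, 79 and 59 with quantile normalization and 80 and 56 with lowess. With the 60th percentile as floor, the brown fat median of -0.08 became 0.66, but this was the value of Cox8b alone. The sebaceous gland median of -0.17 became -0.48, with only Scd1 and Prdm1 still measured. No paired analysis was possible because each group is 1 pool on 1 array.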
